A study of Mus musculus with 6 samples.

Results

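The subunits of the ionotropic and metabotropic receptors for glutamate, GABA, glycine and acetylcholine were described in embryonic dorsal root ganglia, which hold the cell bodies of the sensory neurons of trunk and limbs with their glia. Members were the protein-coding mouse genes with symbols of the Gria, Grik, Grin, Grid, Grm, Gabr, Gabbr, Glr and Chrn families in GENCODE M21. The rule used names and no measured value, but it was set with earlier results of these data known. There were 68 members among 37086 genes, of which 21487 were protein-coding. Each member was represented by the transcript with the most tags (aligned reads counted in its exons) over the libraries.

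Ganglia of 18 wild-type C57BL/6J embryos at E14.5 were pooled, and the RNA of this pool was used for 6 libraries, with no mutant and no treatment. In the high-volume libraries the RNA entered the cDNA reaction in 9 µl, in the low-volume libraries in 1 µl. Each volume used its own SMARTer low-input kit and had 1 library at 3, 10 and 30 ng. Volume and kit cannot be told apart. Because the libraries repeat 1 RNA pool, every SD and p-value below measures technical spread and not spread between animals. Depth ran from 14160401 tags (over the chosen transcripts) at 3 ng to 31524211 at 30 ng, and was lowest at 3 ng in each group. The ganglion label was checked against marker genes: the summed RPKM (tags scaled to transcript length and library total) of 8 sensory neuron markers was 4206 to 5545, that of 7 spinal cord markers 0.677 to 1.83 and that of 5 sympathetic markers 0.053 to 0.848. Most of the sensory sum came from Tubb3 and Stmn2, which neurons in general express, at mean RPKM values of 2961 and 1292. Among the markers more specific to sensory neurons, Pou4f1 was at 48.5, Prrxl1 at 9.00 and Tlx3 at 0.624. Non-neuronal markers were present as well. The summed RPKM was 864 to 996 for 6 glial, 116 to 144 for 3 macrophage and 13.4 to 17.8 for 3 endothelial markers. Most of the glial sum came from Fabp7, at a mean of 869. In bulk RNA, fewer cells of a type and less RNA per cell cannot be told apart.

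Ionotropic receptors are channels built from several subunits, and the choice of subunit sets their ion selectivity, kinetics and drug sensitivity. AMPA, kainate and NMDA receptors are tetramers opened by glutamate, GABA-A, glycine and nicotinic receptors are pentamers, and the GABA-B and metabotropic glutamate receptors act through G proteins. In the adult ganglion GABA depolarises sensory neurons, and kainate receptors that contain GluK1 are a known feature of small-diameter neurons.

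Some subunit transcripts exist in forms that differ by short exons, and the sequences of those with tags to compare are shown first. AMPA receptor transcripts carry either a flip or a flop exon of 115 bases, which changes how fast the channel desensitises. In Gria2, encoding the subunit that makes AMPA receptors impermeable to calcium, the flip exon lies at chr3:80690404-80690518 and the flop exon at chr3:80691320-80691434 (GRCm38, minus strand, both coding exons). Capitals mark the 36 bases at which they differ, 68.7% identity over the exon.
Gria2 flip: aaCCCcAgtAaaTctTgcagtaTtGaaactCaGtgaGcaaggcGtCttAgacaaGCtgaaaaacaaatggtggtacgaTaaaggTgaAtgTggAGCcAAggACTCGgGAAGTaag
Gria2 flop: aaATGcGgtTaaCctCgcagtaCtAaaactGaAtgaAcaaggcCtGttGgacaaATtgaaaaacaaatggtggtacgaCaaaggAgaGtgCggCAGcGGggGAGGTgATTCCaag
The next sequence shows in capitals a cassette exon without tags, the 111-base C1 exon of Grin1 (chr2:25294438-25294548, minus strand), which encodes part of the intracellular tail, with 15 bases of the exons on either side in lower case.
Grin1 C1 cassette: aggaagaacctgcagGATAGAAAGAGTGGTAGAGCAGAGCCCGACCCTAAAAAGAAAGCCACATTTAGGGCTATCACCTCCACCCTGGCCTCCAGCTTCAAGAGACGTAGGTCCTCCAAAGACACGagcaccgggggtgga

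Most receptor subunits were transcribed at a low level. Only Gabbr1 had a mean RPKM of 10 or more, 21 of 68 members (30.9%) had 1 or more, 25 lay between 0.1 and 1, and 22 (32.4%) were under 0.1. Among all protein-coding genes 52.9% reached an RPKM of 1 and 30.8% were under 0.1. The median of the members was 0.441, beside 1.27 for all protein-coding genes. Summed by class, GABA-A subunits had an RPKM of 22.7 ± 5.78 (SD, n = 6 libraries), GABA-B 15.6 ± 2.34, kainate 12.4 ± 4.23, nicotinic 11.1 ± 3.18, metabotropic glutamate 10.3 ± 1.15, AMPA 6.96 ± 0.809, NMDA 3.06 ± 1.68 and glycine 2.49 ± 0.924. Among the 21 members with an RPKM of 1 or more, neighbours in the order of level differed beyond their spread at a single step, from Grik1 down to Gabra3 (0.81 ± 0.42 on the log2(RPKM + 1) scale, higher in 6 of 6 libraries).

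**Figure D1:**
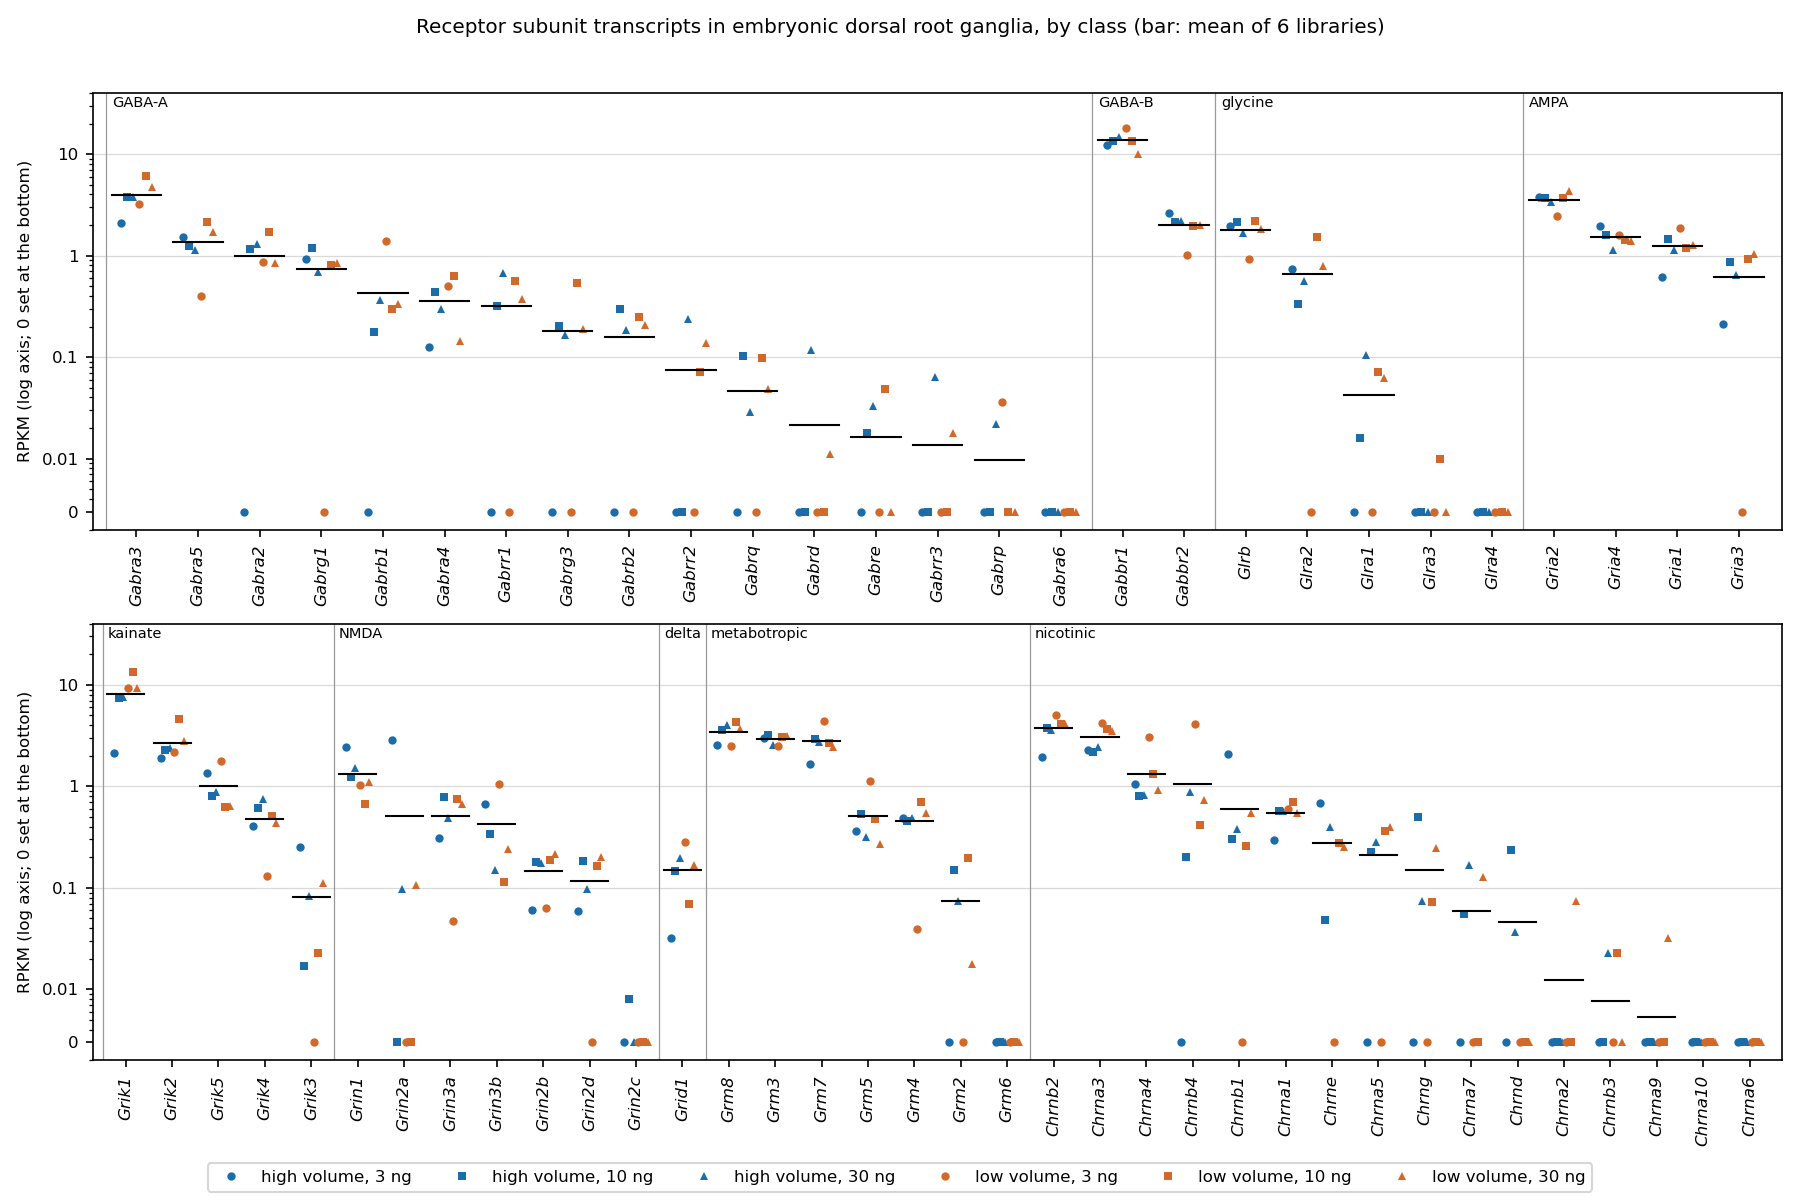
RPKM of the receptor subunits described here in each library on a log axis, by receptor class, with values of 0 set at the bottom. Blue marks the high and orange the low volume, circles 3 ng, squares 10 ng and triangles 30 ng, and the bar is the mean of 6 libraries. Gabbr1 and Grik1 lead, and most zeros of members with a mean RPKM over 0.1 are circles.

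GABA-B receptors need both of their subunits, GABBR1 to bind GABA and GABBR2 to signal. Per library, in the order high volume at 3, 10 and 30 ng and then low volume at 3, 10 and 30 ng, Gabbr1 had RPKM values of 12.2, 13.4, 14.7, 18.2, 13.4 and 10.1. In the same order, which is used throughout, Gabbr2 had 2.62, 2.15, 2.20, 1.01, 1.94 and 2.02. Gabbr1 was the more abundant per length in 6 of 6 libraries, with a log2(RPKM + 1) difference of 2.29 ± 0.51. Flipping the signs of the 6 differences in an exact permutation test (two-sided) gave p = 0.03125, its smallest possible value, and 0.0375 after adjustment over 18 pairs of related subunits. Such pairs, and which of them passed, are described class by class below, and each pair that passed had these same p-values.

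Gabbr1 is known in 2 main forms, of which 1a carries a pair of sushi domains that 1b lacks. The third and the fourth exon, used only by 1a, held 77 tags in 204 bases and 108 tags in 186 bases over the 6 libraries. The neighbouring exon shared by both forms held 67 tags in 161 bases, a density at which 84.9 and 77.4 tags would lie in those 2 exons. In the 368 bases used only by 1b, where that density would place 153 tags, there were 2. The first exon of 1a was as empty, with 3 tags in 324 bases, so tags at the outermost 5′ end were few for both forms. The low-volume 3 ng library gave 39 of the 77, 57 of the 108 and 20 of the 67 tags. Without it the third and the fourth exon held 38 and 51 tags, against 59.6 and 54.3 at the density of the shared exon, and the bases of 1b held 2 against 107.

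GABA-A receptors usually join alpha, beta and gamma subunits, the alpha subunit setting drug sensitivity and kinetics. Among alpha subunits Gabra3 led, with RPKM values of 2.08, 3.74, 3.80, 3.24, 6.08 and 4.72. It held 55.3% ± 5.33 of the summed alpha RPKM, and 47.9% even in the library where its share was lowest. Gabra5, known for extrasynaptic receptors, followed with 1.51, 1.24, 1.12, 0.401, 2.13 and 1.70, a share of 19.4% ± 8.76. Gabra2 had 0, 1.16, 1.29, 0.865, 1.73 and 0.838, without a tag in the high-volume 3 ng library. The difference Gabra2 minus Gabra3 was -1.34 ± 0.25 (log2) and passed. The only Gabra2 transcript in these files is annotated as a nonsense-mediated decay form. Gabra4 had a mean RPKM of 0.358, and no tag fell in the exons of Gabra6, the subunit of cerebellar granule cells. A floor of 3 tags corresponds to an RPKM of 0.0785 for Gabra6 in the shallowest library and 0.0358 in the deepest.

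Of the beta subunits, which take part in the GABA binding site, Gabrb1 had 0, 0.175, 0.367, 1.40, 0.301 and 0.334, its lowest and its highest value both at 3 ng. Gabrb2 had 0, 0.300, 0.187, 0, 0.250 and 0.207 and was without tags in both 3 ng libraries. Gabrg1, a gamma subunit, had 0.921, 1.19, 0.684, 0, 0.815 and 0.846. Of the further GABA-A members, Gabrr1, a rho subunit of GABA receptors best known from retina, had a mean of 0.320 and Gabrg3 0.182, while Gabrr2, Gabrq, Gabrd, Gabre, Gabrr3 and Gabrp had means of 0.0745 or less.

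**Figure D2:**
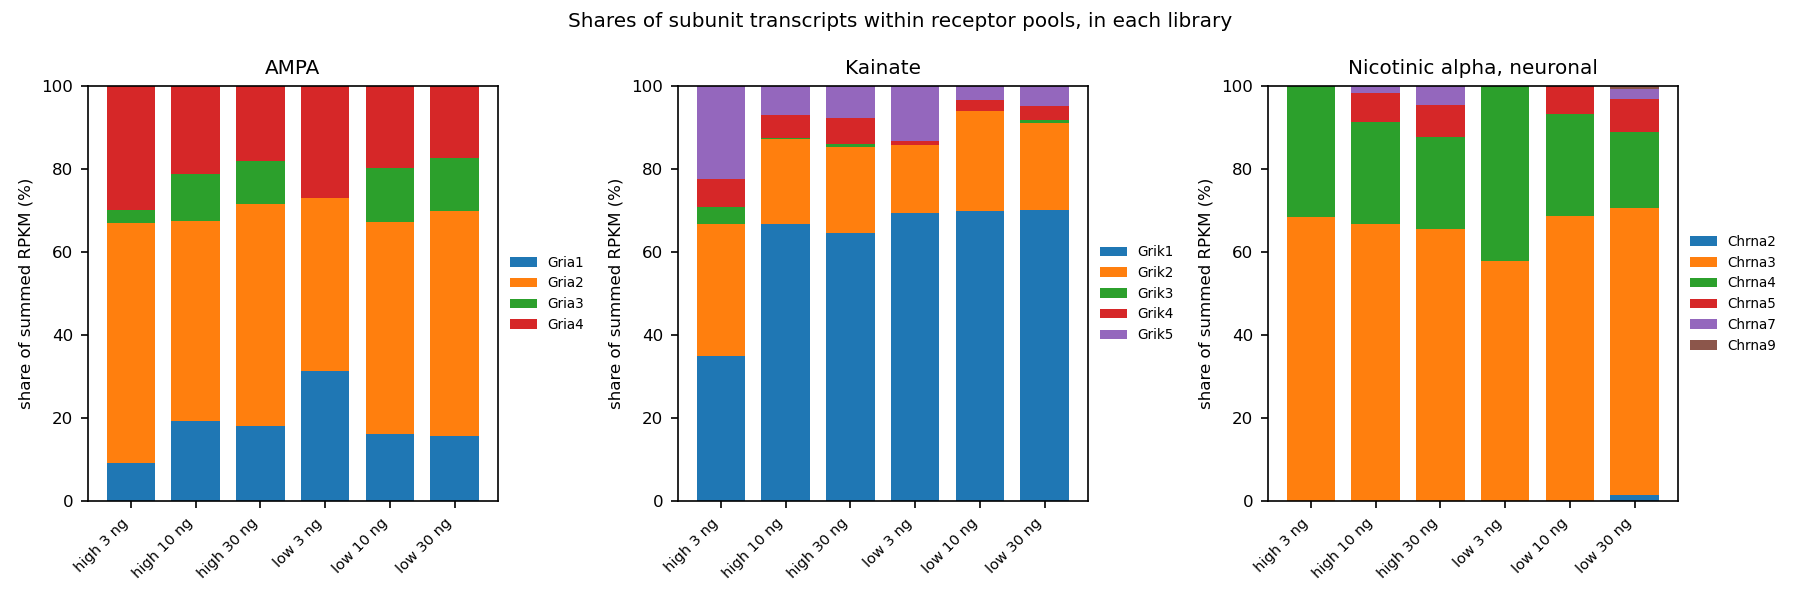
Share of each subunit in the summed RPKM of its pool (percent) in each of the 6 libraries, for AMPA, kainate and neuronal nicotinic alpha transcripts. Gria2, Grik1 and Chrna3 each hold the largest share of their pool in all 6 libraries, Grik1 with its lowest share, 35.1%, in the high-volume 3 ng library.

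Many GABA-A genes lie in clusters. On the X chromosome Gabra3 was at a mean RPKM of 3.94 ± 1.36 between Gabre at 0.0165 and Gabrq at 0.046. The 4 members of the chromosome 5 cluster spanned a narrower range: Gabra2 at 0.981 ± 0.580, Gabrg1 at 0.743 ± 0.401, Gabrb1 at 0.429 ± 0.493 and Gabra4 at 0.358 ± 0.204. In the 10 and 30 ng libraries alone their means were 1.25, 0.884, 0.294 and 0.380, in the same order.

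The glycine receptor is built from alpha subunits and Glrb, which anchors it to gephyrin. Glrb had RPKM values of 1.94, 2.15, 1.68, 0.936, 2.22 and 1.84, and Glra2, the alpha subunit known from fetal tissue, 0.738, 0.331, 0.563, 0, 1.52 and 0.786. Glrb exceeded Glra2 by 0.79 ± 0.30 (log2) and passed. Glra1, the adult subunit, had 0, 0.016, 0.104, 0, 0.072 and 0.062. Glra2 minus Glra1 was 0.61 ± 0.42 and missed the threshold (exact permutation p = 0.0625, adjusted 0.0703), with Glra2 higher in 5 libraries and neither gene holding a tag in the low-volume 3 ng library. Glra3 had 1 tag in all, and no tag fell in the exons of Glra4.

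Among AMPA receptor subunits Gria2 led, with RPKM values of 3.81, 3.67, 3.39, 2.47, 3.70 and 4.36 and 51.1% ± 5.57 of the class. Gria4, prominent in early development, had 1.97, 1.61, 1.15, 1.60, 1.44 and 1.39. Gria1, the subunit known for activity-dependent trafficking, had 0.617, 1.46, 1.15, 1.86, 1.18 and 1.26. Gria2 exceeded Gria1 by 1.03 ± 0.43 and Gria4 by 0.85 ± 0.27 (log2), and both pairs passed. Gria3 was lowest, with 0.211, 0.864, 0.642, 0, 0.935 and 1.03.

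In the exons shown above, the Gria2 flip form held 82 tags over the 6 libraries and the flop form 34, so flip made up 70.7% of the 116. Flip was the higher in 5 of 6 libraries, the high-volume 30 ng library being the exception with 8 flip and 10 flop tags. Gria1 had 25 flip and 18 flop tags, with each form ahead in 2 libraries and no tag of either at 3 ng. Gria3 had 6 and 0. Gria4 had 31 and 11, but 21 of its flip tags came from the low-volume 3 ng library and 10 of its flop tags from the high-volume 3 ng library, and the other 4 libraries together had 10 flip tags and 1 flop tag. Tags carry no molecular identifiers, so these are counts of reads and not of molecules.

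Kainate receptor transcripts were dominated by Grik1, which encodes GluK1, with RPKM values of 2.12, 7.50, 7.54, 9.28, 13.4 and 9.28. The high-volume 3 ng library was the low value, and the 3 low-volume libraries were all above the 3 high-volume ones. Grik2, for GluK2, had 1.91, 2.31, 2.40, 2.19, 4.60 and 2.78. Grik1 exceeded Grik2 by 1.21 ± 0.56 (log2) and passed, with its smallest margin in the high-volume 3 ng library. Of the high-affinity subunits, which need GluK1 to GluK3 to form channels, Grik5 had 1.35, 0.796, 0.888, 1.77, 0.628 and 0.638 and Grik4 0.406, 0.611, 0.753, 0.130, 0.509 and 0.435. Grik5 minus Grik4 was 0.43 ± 0.49 and passed, yet in the 10 and 30 ng libraries alone it was 0.14. Grik3 had a mean of 0.081, with 0.252, 0.017, 0.083, 0, 0.023 and 0.112.

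NMDA receptors need the GluN1 subunit, encoded by Grin1, together with GluN2 or GluN3 subunits. Grin1 had RPKM values of 2.45, 1.24, 1.52, 1.04, 0.668 and 1.10, but 30.6% of its exonic bases also belong to Grin1os on the opposite strand, and the sources used here do not say whether counting used strand. Its GluN2 partners were scarcer: Grin2b had 0.060, 0.181, 0.175, 0.063, 0.189 and 0.217, Grin2d had a mean of 0.118 and Grin2c 1 tag in all. Grin1 exceeded Grin2b by 0.99 ± 0.40 (log2) and passed. Grin2a had 2.88, 0, 0.097, 0, 0 and 0.107 on a transcript annotated as a retained intron, and 49 of its 56 tags came from the high-volume 3 ng library. A protein-coding Grin2a transcript of 4820 bases held 22, 4, 4, 0, 0 and 7 tags. The value of 0 in the high-volume 10 ng library is thus that of the chosen transcript and not of the whole gene. Grin2b minus Grin2a was -0.18 ± 0.83 and did not pass (exact permutation p = 1), although Grin2b was the higher in 5 of 6 libraries. Of the glycine-binding GluN3 subunits, Grin3a had 0.310, 0.795, 0.488, 0.047, 0.749 and 0.677. Grin3b had a mean of 0.430, with 31.9% of its exonic bases shared with Tmem259 and a tag density in its exons only 1.25 times that in its introns.

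The C1 exon of Grin1 shown above held no tag in any library, where a floor of 3 tags applies. The exon before it held 24 tags in 146 bases and the last exon, in the part used with and without the C2 segment, 269 tags in 948 bases. At their joint density 29.7 tags would lie in C1. The C2 segment at the start of the last exon held 1 tag in 356 bases, where 95.3 would lie. The N1 cassette near the 5′ end held 8 tags, 6 of them from the low-volume 3 ng library, beside 8.16 at the density of its neighbours. Without that library N1 held 2 tags, beside 4.53. Parts of the exon before C1 and of the last exon are among the bases shared with Grin1os.

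Delta receptors resemble glutamate receptors but bind partners such as cerebellins. Grid1 had RPKM values of 0.032, 0.148, 0.195, 0.285, 0.069 and 0.167.

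Among metabotropic glutamate receptors, 3 transcripts were close in level. Grm8, a group III receptor that damps transmitter release, had RPKM values of 2.56, 3.62, 4.00, 2.51, 4.30 and 3.69. Grm3, of group II, had 3.00, 3.23, 2.57, 2.52, 3.10 and 3.12, with a coefficient of variation of 10.3%. Grm7, the group III receptor of presynaptic active zones, had 1.66, 2.95, 2.71, 4.45, 2.69 and 2.47. The ranges of the 3 overlapped. Grm4, also group III, was lower, at 0.484, 0.452, 0.485, 0.039, 0.698 and 0.552, and Grm7 minus Grm4 was 1.38 ± 0.54 (log2), which passed. Grm5, a group I receptor that raises intracellular calcium, had 0.365, 0.538, 0.319, 1.12, 0.479 and 0.273. Grm2 had a mean of 0.0735, and Grm6, the receptor of retinal bipolar cells, had no tag.

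Neuronal nicotinic receptors combine alpha and beta subunits, and Chrnb2 and Chrna3 led this class. Chrnb2 had RPKM values of 1.96, 3.80, 3.62, 5.08, 4.08 and 4.14, and Chrna3, known from peripheral ganglia, 2.30, 2.19, 2.43, 4.26, 3.68 and 3.51, the 3 low-volume libraries all being above the 3 high-volume ones. Chrna4 had 1.06, 0.805, 0.824, 3.09, 1.31 and 0.929. Chrna3 exceeded Chrna4 by 0.84 ± 0.30 (log2), and held 66.1% ± 4.24 of the neuronal alpha transcripts. Chrna7, which forms channels of its own, had 0, 0.055, 0.170, 0, 0 and 0.127, and Chrna3 exceeded it by 1.92 ± 0.35. Both pairs passed. The beta subunit Chrnb4, a neighbour of Chrna3 on chromosome 9, had 0, 0.200, 0.875, 4.10, 0.415 and 0.727, and over its mean of 1.05 its SD was 1.53. Chrnb2 minus Chrnb4 was 1.42 ± 0.62 and passed. The third gene of that cluster, Chrna5, an accessory subunit, had a mean of 0.212, while Chrna2, Chrnb3 and Chrna9 had 9, 6 and 2 tags in all and Chrna6 and Chrna10 none.

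Transcripts of the muscle nicotinic receptor were present at a low level. Chrna1, its ligand-binding subunit, had RPKM values of 0.295, 0.573, 0.574, 0.593, 0.698 and 0.551. Chrnb1 had 2.07, 0.305, 0.379, 0, 0.256 and 0.547. The fetal subunit Chrng had a mean of 0.149, the adult subunit Chrne 0.276 and Chrnd 0.046. Skeletal muscle markers were present beside them: their summed RPKM over 9 genes was 43.2 to 46.7 in the high-volume and 41.1 to 50.7 in the low-volume libraries, led by the myosin light chain Mylpf at 22.0 and actin Acta1 at 10.1, with Myog at 1.41 and Myod1 at 0.0848. Their part in the levels of these 5 subunits was not tested.

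Genes whose products anchor, traffic or modulate these receptors were taken from a list of 48, of which 47 were found under their symbols. Of these, 30 reached a mean RPKM of 1, among them 8 that reached 10. Among all protein-coding genes 52.9% reached 1 and 20.6% reached 10. Gabarap, which binds GABA-A receptors and also serves in autophagy, had 574 ± 34.3, the fusion ATPase Nsf 17.2 ± 2.89 and the synaptic scaffold gephyrin, Gphn, 10.1 ± 2.78. Ly6h, a modulator of nicotinic receptors, had 22.6 ± 9.16, and Rapsn, which clusters muscle receptors, 5.95 ± 1.97. Of the AMPA receptor auxiliary subunits, Cnih2 was at 10.5 ± 3.37, Cacng4 at 7.13 ± 0.966, Cacng5 at 3.28 ± 0.430 and Gsg1l at 1.72 ± 0.188. Cacng2, or stargazin, was at 0.132, and Cacng7 and Cacng8 had no tag. The kainate partner Neto2 was at 4.43 ± 0.845 and Neto1 at 0.279. Of the chloride transporters that set the direction of GABA currents, the importer Slc12a2 was at 4.40 ± 1.32 and the exporter Slc12a5 at 0.158 ± 0.133.

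Over all classes, 15 of the 18 pairs passed the sign-flip test, and Glra2 minus Glra1 and Grin2b minus Grin2a were among those that did not. The pairs were chosen with earlier results of these data known. A pass therefore says only that the difference had the same sign in every library of the same RNA pool. Whether such a pair passes after adjustment also depends on how many listed pairs reach the smallest p, here 15 of 18. In the 10 and 30 ng libraries alone each of the 18 pairs went one way in 4 of 4 libraries. With 1 added to each RPKM, ratios between weakly transcribed genes are understated on this scale.

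Of the comparison of volumes, no receptor subunit passed. Counts of all genes were fitted with edgeR's quasi-likelihood test, with volume and log2 input in the model, and 45 of the 68 members passed the filter on low counts. None had an adjusted p under 0.05 (lowest 0.749), none an unadjusted p under 0.05, and DESeq2 called none (lowest adjusted p 0.227). Over the 16120 genes tested, edgeR called 0.0062% and DESeq2 1.13%, and 6.67% had an unadjusted edgeR p under 0.05. The log2 difference, high minus low, was above 0 in 24 members and below 0 in 21, with a median of 0.05, beside 0.02 over all genes tested.

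In 5 members the 2 groups of 3 libraries did not overlap. Grin1 (log2 difference 1.00 ± 0.43 SE, adjusted edgeR p 0.749) and Gabbr2 (0.67 ± 0.33) were among the 3 that were higher in every high-volume library, and Grik1 (-0.88 ± 0.40) and Chrna3 (-0.57 ± 0.27) were lower. Among all genes tested 8.1% lay entirely higher and 7.28% entirely lower, so 3 and 2 of 45 members are no more than the background gives. Of these differences, that of Grin1 was 0.64 and that of Grik1 -0.38 without the high-volume 3 ng library, and Grik1 was at -1.36 without the low-volume 30 ng library. Gabbr2 was at 0.37 without the high-volume and 0.29 without the low-volume 3 ng library, while Chrna3 stayed between -0.67 and -0.52 with any 1 library left out. The 4 largest absolute differences belonged to Chrnb4 (-2.25 ± 1.83), Grik3 (1.87 ± 1.86), Chrnb1 (1.84 ± 1.75) and Gabrb1 (-1.83 ± 1.58). Each of these 4 had its highest or lowest value in a 3 ng library, as their RPKM values above show. Without the high-volume 3 ng library they were at -0.46 (Chrnb4), -0.19 (Grik3), 0.41 (Chrnb1) and -0.40 (Gabrb1), and without the low-volume 3 ng library at -0.65, 0.35, 0.25 and -0.64. In the 10 and 30 ng libraries alone the values were -0.17, -0.30, -0.04 and -0.16. Leaving out a 10 or 30 ng library instead gave -5.10 to -1.66 for Chrnb4, 1.40 to 4.23 for Grik3, 1.73 to 4.10 for Chrnb1 and -3.80 to -1.84 for Gabrb1.

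**Figure D3:**
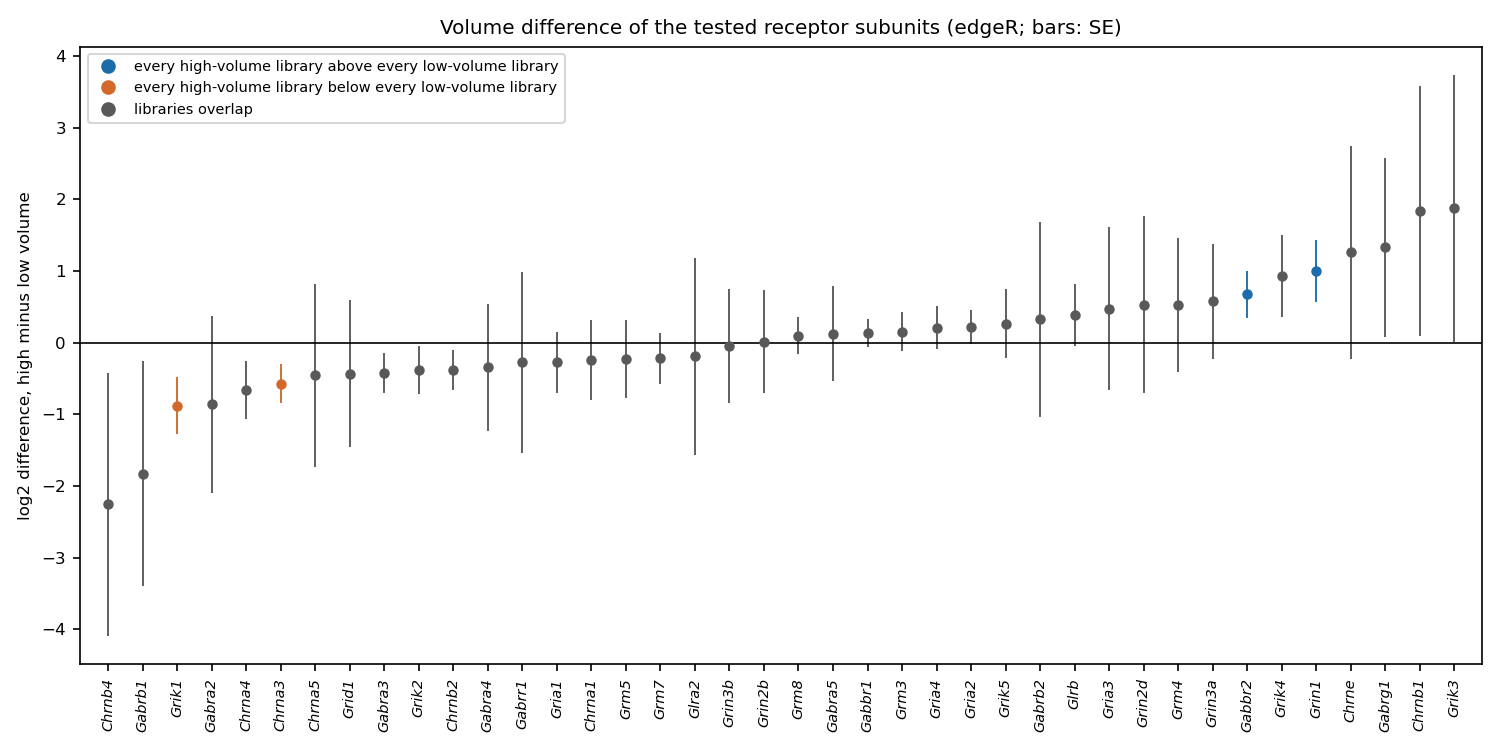
Log2 difference between the high and the low volume, with its SE from edgeR, for receptor subunits that passed the filter on low counts. Blue points are members with every high-volume library above every low-volume one, orange points those with the reverse, and the widest bars belong to members of low count such as Chrnb4, Grik3 and Chrnb1.

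Along the input amount no member passed either. The lowest adjusted p by edgeR was 0.625, none had an unadjusted p under 0.05, and DESeq2 called none (lowest adjusted p 0.166). Over all genes tested edgeR called 0% and DESeq2 0.273%, and 7.77% had an unadjusted edgeR p under 0.05. The slope per doubling of input was above 0 in 32 members and below 0 in 13, with a median of 0.10 (log2), beside 0.02 over all genes, of which 56.4% were above 0. Of the 45 partner genes tested, none passed for volume (lowest adjusted p by edgeR 0.691, 3 at an unadjusted p under 0.05) or for input (lowest 0.625, 8 unadjusted).

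Members without any tag were most numerous at 3 ng. Of 68 members, 28 (41.2%) had no tag in the high-volume 3 ng library, 14 (20.6%) at 10 ng and 9 (13.2%) at 30 ng. In the low-volume libraries 32 (47.1%), 14 (20.6%) and 11 (16.2%) had none. Among protein-coding genes the shares were 35.2%, 24.8% and 22.7% at high and 35.4%, 25.2% and 22.7% at low volume. These counts include the lower depth at 3 ng, so tags at 3 ng were also set against the number expected from the mean of the 10 and 30 ng libraries at the same depth. With 10 to 50 tags expected, 6 of 18 members had none in the high-volume 3 ng library, namely Chrna5, Chrnb4, Gabra2, Gabrb1, Gabrb2 and Gabrr1. In the low-volume 3 ng library it was 6 of 17, namely Chrna5, Chrnb1, Gabrb2, Gabrr1, Glra2 and Grin2d. The share of protein-coding genes with none in this range was 24.1% and 26.9%, so such gaps were common to low transcripts in general. With 50 or more expected, 0 of 24 members in the high-volume library had none, and in the low-volume library 2 of 25 had none, Gabrg1 and Gria3, for which 71.4 and 76.2 tags were expected (protein-coding genes 0.504% and 0.897%).

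Fewer members had at least 3 times the expected tags. With 10 to 50 expected, these were 2 of 18 members in the high-volume 3 ng library, Chrnb1 (69 against 12.4) and Grin3b (34 against 10.8), beside 6.45% of protein-coding genes. In the low-volume 3 ng library they were 3 of 17, Chrnb4 (242 against 32.7), Gabrb1 (73 against 15.4) and Grin3b (59 against 11.8), beside 9.72%. Chrna4, with 239 against 74.7, was the only member with 50 or more expected tags to do so there, beside 0.670% of protein-coding genes. Chrnb4, Gabrb1 and Chrnb1 thus had no tag in 1 of the 3 ng libraries and an excess in the other. No member expected at 10 to 50 tags was without a tag in any of the 10 and 30 ng libraries (protein-coding genes 0.542% to 2.65%).

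**Figure D4:**
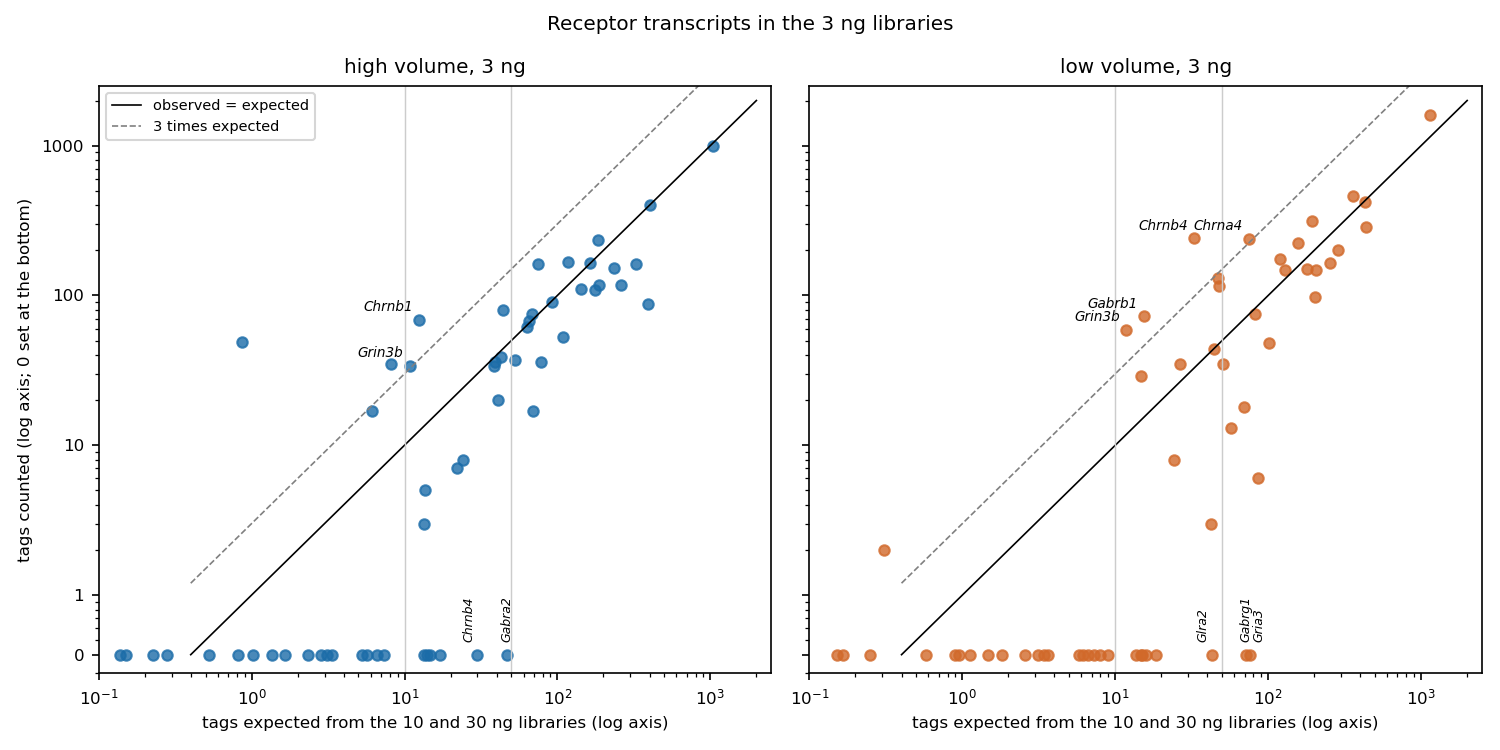
Tags counted in each 3 ng library against tags expected from the 10 and 30 ng libraries, for receptor subunits described here with an expected value above 0 (both axes log, counts of 0 set at the bottom). The solid line is equality, the dashed line 3 times the expectation, and vertical lines mark 10 and 50 expected tags. Names mark members over the dashed line with 10 or more tags expected, and members at 0 with more than 25 tags expected. The latter are Gabra2 and Chrnb4 on the left and Glra2, Gabrg1 and Gria3 on the right.

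Coverage along the exons at 3 ng ranged from none to complete. Chrnb4 had tags in 6 of 6 exons in the low-volume 3 ng library and in none in the high-volume one. Gabra2 had tags in 2 of 10 exons in the low-volume 3 ng library, 4 tags in the first and 31 in the last, and in all 10 exons in each 10 and 30 ng library. All 36 tags of Glra2 in the high-volume 3 ng library lay in its first exon of 9. Even Grik1, with 88 tags there, had tags in 7 of 16 exons, against 15 or 16 in the other 5 libraries. Where 15 were covered, the empty one was exon 15 of 87 bases, which held 0, 0, 2, 0, 1 and 0 tags and so was nearly empty in every library. Gabbr1 was covered in at least 20 of 23 exons in each library.

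**Figure D5:**
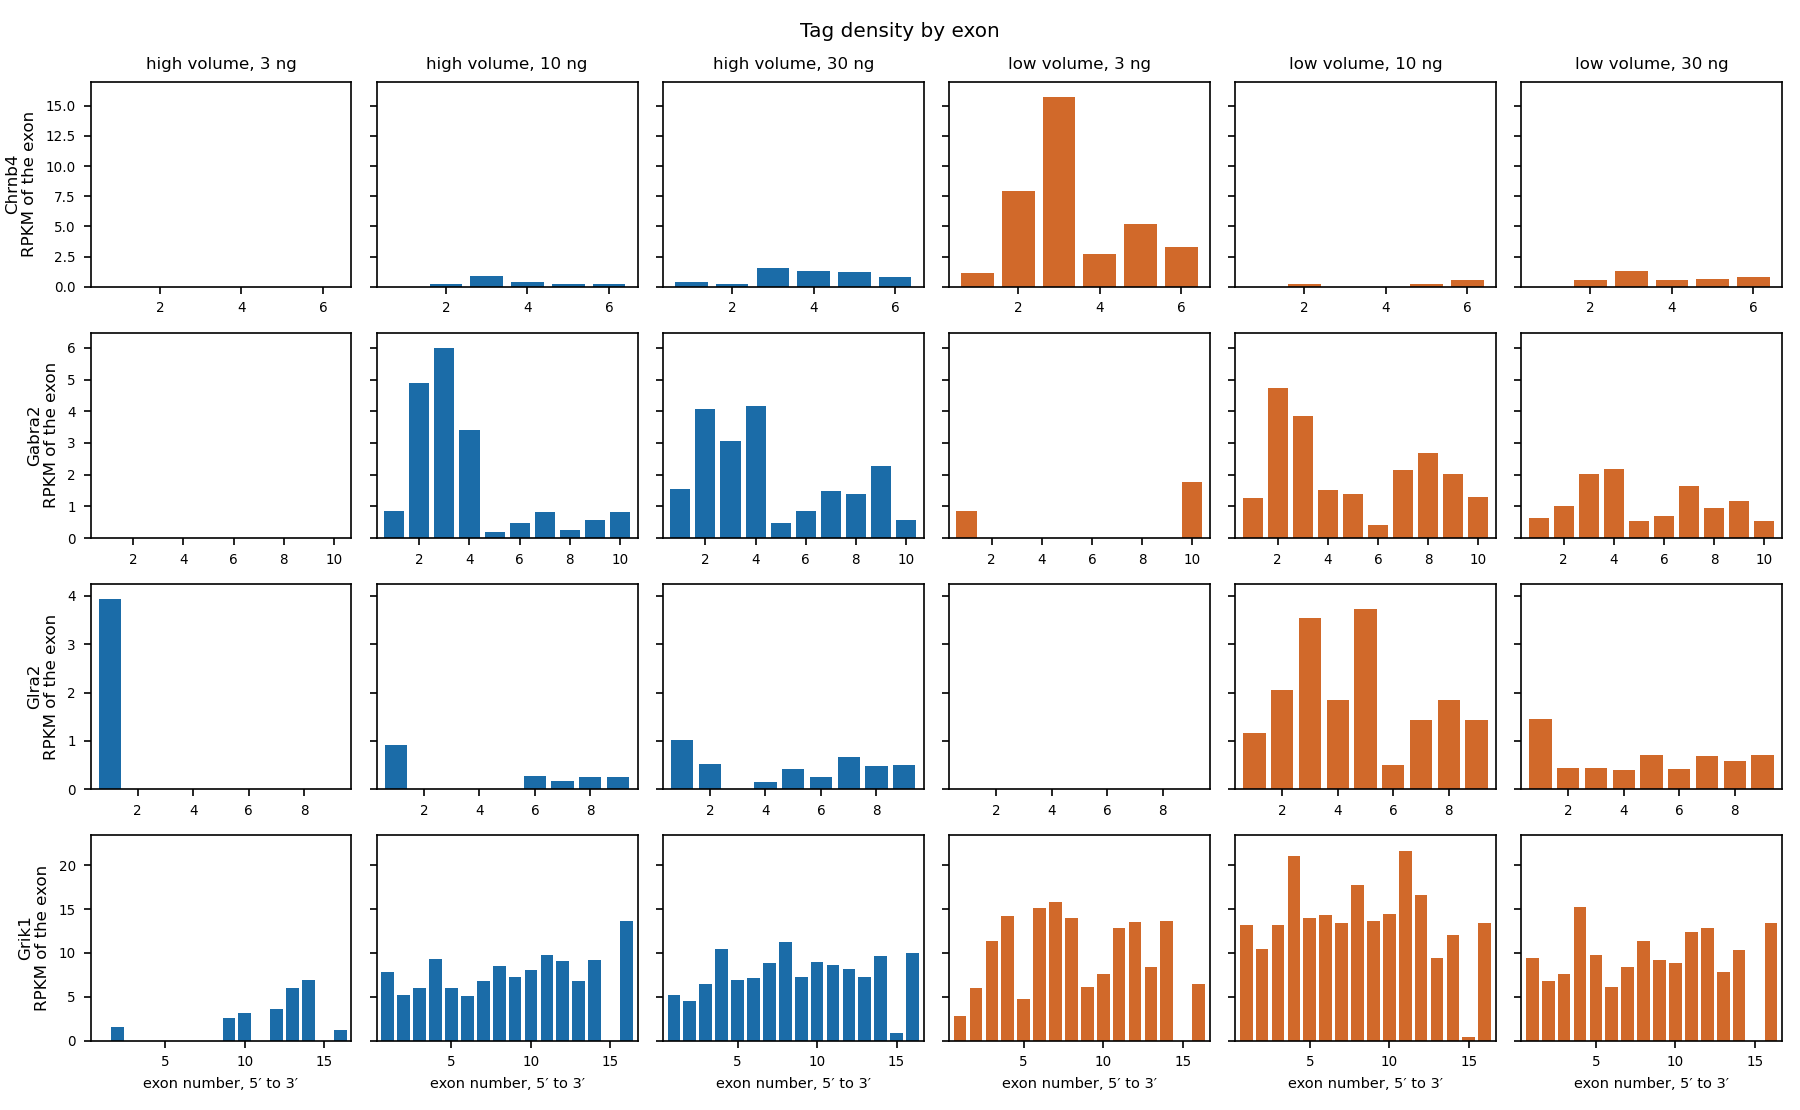
Tag density (RPKM of the exon) along the exons, numbered 5′ to 3′, of Chrnb4, Gabra2, Glra2 and Grik1 in each library, with 1 scale per gene. At 3 ng Chrnb4 has tags in all exons in the low-volume library and in none in the high-volume one, Gabra2 has tags only in its first and last exons in the low-volume library and none in the high-volume one, and Glra2 has tags only in its first exon in the high-volume library and none in the low-volume one.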

How the data were processed

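The submitters' processing notes name TopHat2 2.0.8, Bowtie2 2.1.0, CASAVA 1.8 and the build GRCm38.p1. Not given in the sources used here are the counting program, its use of strand and its treatment of reads with several matches. Deposited files hold, per transcript, exon and intron, a whole-number tag count and the authors' RPKM. Transcripts were assigned to genes with GENCODE M21 (89664 of 93615 matched), and sequences were read from its transcripts. The members, lists, pairs and named genes were chosen with earlier results of these data known. Named were the 2 highest members of each class and any with a mean RPKM of 10, members of pairs, those with an unadjusted edgeR p under 0.05 and the 5 largest volume differences. Counts were tested with edgeR 4.0.16 (TMM, filterByExpr, 3 residual degrees of freedom, Benjamini-Hochberg adjustment, threshold 0.05) and DESeq2 1.42.0. Only the edgeR volume test was checked on simulated counts, which did not model the gaps seen at 3 ng. Replicates 1, 2 and 3 are the 10, 3 and 30 ng libraries of each volume. Some members and pairs are not reported here. Floors of 3 tags cover counting error only. Of 68 members 17 share exonic bases with another gene. The marker symbols Drg11 and Hb9, older names of the listed markers Prrxl1 and Mnx1, matched no gene, and the partner Kctd12 is not analysed here.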

Additional observations from a re-analysis of the deposited data

Results flagged for a closer look

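Glra4, a glycine receptor alpha subunit, had no tag in its exons in any library but 122 tags in its introns, which no comparison above uses. They were counted in 4 of 6 libraries: 0, 14 and 22 in the high-volume libraries at 3, 10 and 30 ng and 0, 58 and 28 in the low-volume ones. Of these, 113 lay in the last of its 8 introns, which has 4732 bases.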

How the results depend on the processing

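No member passed for volume under any of 13 alternatives (other scalings, no filter, DESeq2, the longest transcript, input as a replicate block, the 10 and 30 ng libraries alone, each library left out), with lowest adjusted p-values of 0.169 to 0.999. With the replicate block, the pairing by input amount, 0 members passed and the lowest adjusted p was 0.672. None passed for input under 11 alternatives. Of the 18 pairs, 15 passed with a pseudocount of 0.1, 14 with the longest transcript (Grik1 minus Grik2 1.04, adjusted p 0.0703) and 12 with the transcript of the largest mean RPKM (Gria2 minus Gria4 0.68, Grik5 minus Grik4 0.35, Grin1 minus Grin2b 0.97). The cause of these losses was not tested. The exact permutation test cannot pass with 1 library left out, its smallest p then being 0.0625. Grin2b minus Grin2a turned to 0.10, 0.11 and 0.15 under these 3 settings and to 0.18 in the 10 and 30 ng libraries alone, and with 1 library left out it ran from -0.26 to 0.16, positive only without the high-volume 3 ng library. Log2 volume differences with 1 library left out ran from -0.090 to 0.36 for Gabbr1 and from -0.19 to 4.23 for Grik3, and in the 10 and 30 ng libraries alone Grik3 was at -0.30 and Chrnb1 at -0.041. Members with an RPKM of 1 or more numbered 19 to 22, and the Gria2 flip share was 65.5 to 75.5%; the alternatives for that share and for the Gabbr1 exons and the 10 and 30 ng values of pairs and levels were chosen after seeing the data. A mean RPKM under 0.1 was found in 22 of 68 members (32.4%), beside 30.8% of all protein-coding genes. In the 10 and 30 ng libraries alone it was 21 members. The part of depth in these low values was not tested.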
